A study of Mus musculus with 12 samples.

Results

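Colonic Rspo3-GFP positive stroma was compared with small intestinal Rspo3-GFP positive stroma, 3 libraries against 3, out of 12 libraries in 4 groups of 3. The libraries were chosen by their labelled tissue and GFP sort alone, and the comparison, colon minus small intestine, ran across all genes. All 4 groups held stromal cells of the mouse gut from animals of C57Bl6 background aged 8 to 12 weeks, sorted without EPCAM, a surface protein of epithelial cells, and without CD45, a surface protein of leukocytes. They were then separated by a GFP transgene that reports Rspo3. The compared groups were colonic GFP-positive and small intestinal GFP-positive cells, and the GFP-negative cells of each tissue gave the background for a regional difference. Total RNA was extracted on columns and ribosomal RNA was removed enzymatically. The design of the transgene and the number of animals behind a library are not given in the sources used here. The identifier 3672 stands in the column names of replicate 3 of both tissues, so these libraries may share an animal. Nothing in the labels ties the replicates to separate animals, and the p-values therefore measure only the spread between these samples, which may be technical.

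R-spondins are secreted proteins that amplify Wnt signalling by sparing Wnt receptors from removal at the cell surface, and intestinal epithelial stem cells depend on them. In the gut wall R-spondin 3 is made by lymphatic endothelial cells and by fibroblasts near the crypt base, which also secrete gremlin 1, an inhibitor of BMP signals. Small intestine and colon share this crypt architecture. They differ in their embryonic position along the body axis, in exposure to food compounds and microbes, and in the supply of vitamin A.

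The 6 libraries held 7735300 to 12286054 estimated counts and 18933 to 21055 genes with a count. Values below are CPM, the TMM-scaled count rate per library, given for replicates 1, 2 and 3 in that order, and differences are on the log2 scale with their standard error (SE). Means carry the SD over n = 3 libraries. A gene was called when its Benjamini-Hochberg adjusted p in edgeR's quasi-likelihood test was under 0.05, and only called genes are said to be higher or lower. Rspo3 itself (ENSMUSG00000019880, chromosome 10, 29452416 to 29535867, minus strand of GRCm38) measured 196, 191 and 192 CPM in the small intestine and 161, 117 and 119 CPM in the colon, against group means of 8.99 and 3.76 CPM in the GFP-negative cells of the small intestine and the colon. Every colonic value lay below every small intestinal one, yet the difference of -0.55 ± 0.36 (SE, adjusted p = 0.520) was not called. A principal component analysis of the 6 libraries placed the tissues apart on the first axis, which held 44.4% of the variance, and the second axis with 19.6% spread the small intestinal replicates.

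Markers of the cell types that the gate could hold were summed in each library. Lymphatic endothelial markers, such as Prox1, Lyve1, Flt4, Mmrn1 and the abundant chemokine gene Ccl21a, were summed first. They gave 11666, 15531 and 4554 CPM in the small intestine and 19923, 21912 and 18793 CPM in the colon. Small intestinal replicate 3 thus stood apart below the other 5 libraries. General fibroblast markers, such as Pdgfra, Dcn and Col1a1, summed to 53602, 54962 and 79529 CPM and 32213, 35176 and 30391 CPM, and the colon lay lower in every library. Of the 13 lymphatic markers tested, 1 was called higher (Sema3d) and none lower, and their median log2 difference was 0.63. Of the 14 fibroblast markers tested, 1 was called higher (Vim, vimentin, an intermediate filament of mesenchymal and endothelial cells) and none lower, with 13 of 14 differences below 0 and a median of -0.93, beside -0.02 over all tested genes. In the edgeR fit of the 6 GFP-positive libraries alone 9 of these 14 were lower, with DESeq2 8, without a filter on low counts 4 and with the replicate block 2. In bulk libraries fewer cells of a type and less RNA per cell cannot be told apart, and the part of this cell mixture in the differences of single genes was not tested.

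Epithelial RNA was the clearest departure from the gate. The 15 epithelial markers summed to 14.6, 24.05 and 20.8 CPM in the small intestine and 462, 884 and 2509 CPM in the colon, beside 379.6 to 3364 CPM over the GFP-negative libraries, and 12 of the 14 tested were called higher in the colon. Epcam, which encodes the protein the sort excluded, measured 0, 2.17 and 0.472 CPM in the small intestine and 18.0, 50.8 and 170.2 CPM in the colon, and colonic replicate 3 stood highest. Across the 12 called epithelial markers, colonic replicate 3 exceeded replicate 1 by 3.69-fold to 9.44-fold (median 5.16). Of the 13 tested markers of colonic epithelium, 9 were called higher, among them Car1, Slc26a3, Aqp8 and Saa1, whereas the list of small intestinal epithelium had 1 higher (Apob) and 1 lower (Defa24) of 14. With limma-voom 2 epithelial and 1 colonic epithelial marker were called, with the identifier as a random block 3 and 1, and on log2(TPM + 1) 5 and 4, against 14 and 11 with DESeq2. Markers of mesothelium, the lining of the gut's outer surface, summed to 73.3, 99.7 and 39.5 CPM in the small intestine and 253, 277 and 473 CPM in the colon. Of the 4 tested, Krt19 and Cldn15, also known from epithelia, were called higher, and Gpm6a measured 72.2, 98.2 and 33.7 CPM in the small intestine and 186, 173 and 153 CPM in the colon and was not called (1.33, adjusted p = 0.195). Msln, Lrrn4, Bnc1 and Muc16 had no count in any of the 6 libraries. Leukocyte markers summed to 34.9, 57.9 and 115 CPM and 397, 365 and 420.3 CPM, but Cd74 alone measured 23.5, 50.9 and 59.4 CPM in the small intestine and 386, 338 and 376 CPM in the colon, and Ptprc, which encodes CD45, had means of 3.41 and 4.18 CPM. Immunoglobulin and other plasma cell transcripts lay at 441, 1219.8 and 2518 CPM and 243, 353 and 530.2 CPM with no member called. Enteric glia markers summed to 75.0, 92.3 and 134 CPM in the small intestine and 88.6, 101 and 124 CPM in the colon. Of the 10 tested, 1 was called higher (Erbb3, 3.56), and Sox10 stayed at or below 1.48 CPM in all 6 libraries.

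**Figure D1:**
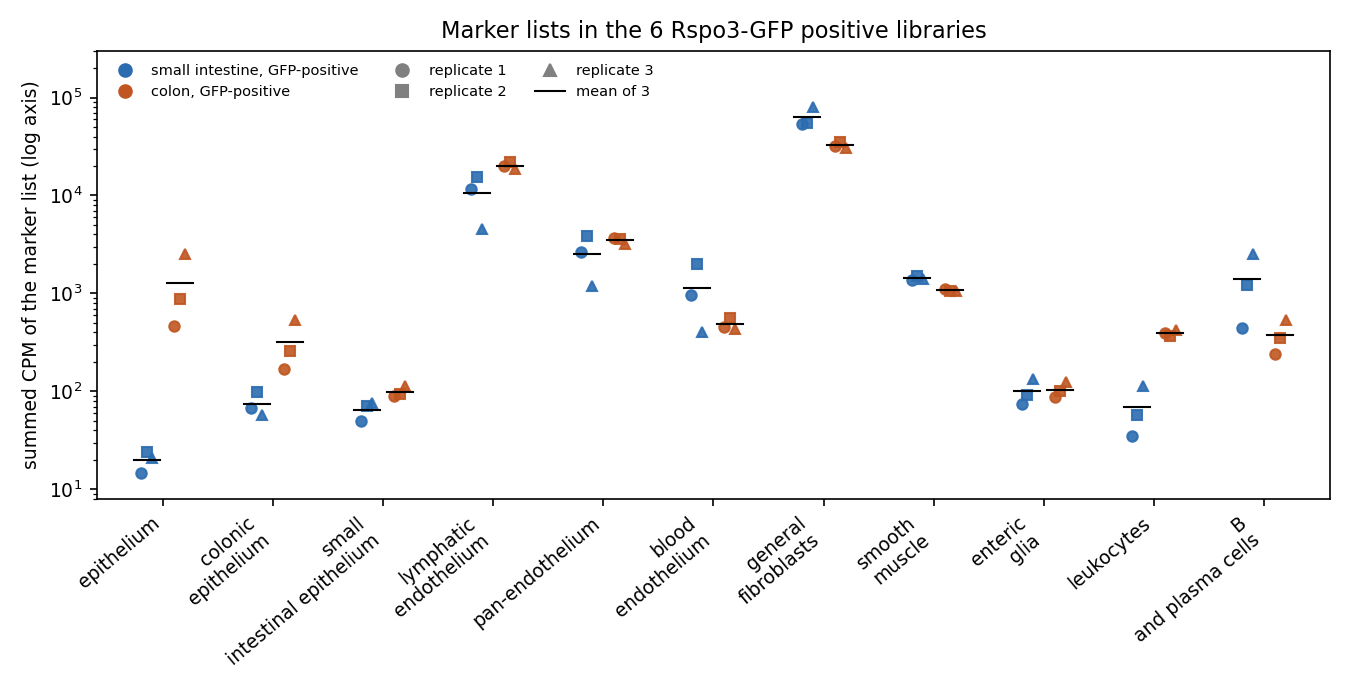
Summed CPM of 11 marker lists in the 6 Rspo3-GFP positive libraries, on a log axis, with symbols for the 3 replicates, colours for the tissues and bars for the mean of 3. The epithelial sum rises from 14.6-24.05 CPM in the small intestine to 462-2509 CPM in the colon, and small intestinal replicate 3 is lowest for lymphatic endothelium and highest for fibroblasts.

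Between colon and small intestine 765 of 16757 tested genes were called (4.57%), 461 higher in the colon (2.75%) and 304 lower (1.81%). These shares are the background of every list count in the text. Of the called genes, 738 were protein coding. The median difference over all tested genes was -0.02. On the deposited log2(TPM + 1) scale, tested with limma-trend, the median was 0.13 and the calls split 311 higher against 65 lower. Genes whose groups did not overlap made up 24.7% of those tested, 12.9% with every colonic library above and 11.8% with every colonic library below. Among the called genes, 460 of the 461 higher and 303 of the 304 lower did not overlap, so the lack of overlap adds little to a call. In the GFP-negative cells 706 genes were called (4.21%), 369 higher (2.2%) and 337 lower (2.01%). In all, 189 genes were called in both sorts, which is 24.7% of the GFP-positive and 26.8% of the GFP-negative calls. Of these 189 genes, 165 moved in the same direction and 24 in opposite directions. The difference between the sorts was itself called for 345 genes (2.06%), 195 above 0 (1.16%) and 150 below (0.895%). Among them were 183 of the 765 genes called in GFP-positive cells. The column name of each GFP-positive library starts like that of 1 GFP-negative library of its tissue, and a fit that paired the sorts in this way called 330 genes, 201 of them among the 345.

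The calls leaned on single libraries. Leaving out 1 library at a time left 416 to 613 calls, with 439 without small intestinal replicate 1, 481 without small intestinal replicate 3, 416 without colonic replicate 2 and 432 without colonic replicate 3. Among the 461 higher genes, 288 (62.5%) had a value in colonic replicate 3 at least 2-fold above replicate 1, the order of the epithelial markers, against 13.4% of all tested genes. The 3 colonic values lay within 1.5-fold of each other for 120 of the 461 genes, a limit set after the values were seen. Below, where a named call was lost without a library, its highest adjusted p over the 6 such fits is given with the library left out. The part of epithelial RNA in the other higher calls was not tested.

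Hox genes differed between the tissues by paralog group. They encode transcription factors that lie in 4 clusters, and genes of higher paralog number are used further towards the tail. All 7 called posterior genes were higher in the colon, and all but 1 of the 9 called central and anterior genes were lower. Of 16 posterior genes listed (paralog groups 9 to 13) 14 were in the table and 11 passed the filter on low counts, with counts mainly in the colonic libraries, so their count only describes them. Hoxc9, Hoxc11 and Hoxd12 did not pass it. The median log2 difference of the 11 genes was 6.20, or 4.89 with genes lacking a small intestinal count at their bound.

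Hoxa13 (ENSMUSG00000038203, chromosome 6, 52257694 to 52260880, minus strand) measured 0.0832, 0 and 0 CPM in the small intestine and 3.74, 3.17 and 6.74 CPM in the colon, which came from 1 small intestinal and 117 colonic counts and gave a counting ratio of 141 (95% interval 24.8 to 5615, counting error only). The difference had an adjusted p of 0.000802. Hoxa11, Hoxb9, Hoxb13, Hoxd11 and Hoxd13 had no count in any small intestinal library. With 3 counts taken as the floor of the whole small intestinal group, Hoxd11 was at least 46.2-fold higher in the colon (4.07, 5.68 and 4.0 CPM, adjusted p = 0.00116) and Hoxa11 at least 74.3-fold (8.46, 8.06 and 5.37 CPM, adjusted p = 0.0115). Both had similar values in the 3 colonic libraries. Hoxb13 was at least 106-fold higher with 2.31, 8.45 and 20.5 CPM and Hoxd13 at least 29.7-fold with 0.330, 1.58 and 6.74 CPM, and in both colonic replicate 3 was highest, as for the epithelial markers. Hoxa10 had 0, 0.493 and 0 CPM in the small intestine and 6.81, 8.19 and 9.94 CPM in the colon, a difference of 5.54 ± 0.82 (SE, adjusted p = 0.00223). Hoxb9 was present at 0.769, 0.660 and 1.71 CPM, at least 10.8-fold above the small intestine. The 4 posterior genes not called, Hoxa9, Hoxc10, Hoxd9 and Hoxd10, had differences of 4.01, 3.61, 1.69 and 3.39. The calls of Hoxa10, Hoxa11, Hoxa13 and Hoxd11 held without any single library. Those of Hoxb13 (adjusted p up to 0.0549 without small intestinal replicate 1), Hoxd13 (0.0814 without small intestinal replicate 1, lost in 5 of 6 fits) and Hoxb9 (0.103 without colonic replicate 3, lost in 6 of 6 fits) did not.

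The called central and anterior Hox genes were lower, apart from Hoxd8. Among 15 central genes (groups 4 to 8), Hoxa4, Hoxa5, Hoxc4, Hoxc5 and Hoxc6 were lower and Hoxd8 was higher, and among 6 tested anterior genes (groups 1 to 3) Hoxa2, Hoxa3 and Hoxb2 were lower. With limma-voom no gene of these 2 lists was called lower, and on log2(TPM + 1) 2 central and no anterior genes were. With the identifier as a random block 3 central and no anterior genes were lower, and without both libraries of identifier 3672 1 central and no anterior gene. The medians were -0.70 and -1.63. Hoxc4 measured 6.49, 12.1 and 8.74 CPM in the small intestine and 0.440, 0 and 0.686 CPM in the colon, a difference of -4.52 ± 0.82 (SE, adjusted p = 0.00716), with no overlap of the groups. Hoxc6 fell from 4.63 ± 1.65 to 0.236 ± 0.110 CPM (-4.21, adjusted p = 0.0102), Hoxa2 from 9.03 ± 4.46 to 0.651 ± 0.351 CPM (-3.78, adjusted p = 0.00270) and Hoxa5 from 14.2 ± 5.91 to 3.83 ± 1.01 CPM (-1.89, adjusted p = 0.00967). Hoxc5 gave 99 small intestinal and 3 colonic counts, a ratio of small intestine to colon of 27.4 (95% interval 9.10 to 135, counting error only). Hoxd8 was the exception, with 14.8, 14.3 and 10.6 CPM in the small intestine and 36.5, 44.2 and 31.9 CPM in the colon and a difference of 1.5 ± 0.30 (SE, adjusted p = 0.0122), and its groups did not overlap. The genes Hoxa6, Hoxa7 and Hoxb4 to Hoxb8 were not called, with differences between -0.87 for Hoxb5 and 0.99 for Hoxa7. Hoxc8 at -5.86 and Hoxd4 at 1.37 were not called either (adjusted p = 0.247 and 0.170). Hoxb5 was lower in the GFP-negative colon (-3.58, adjusted p = 0.00124), and the difference between the sorts was called (2.72 ± 0.55 SE, adjusted p = 0.0266), though not with the sorts paired within each tissue (adjusted p = 0.0718). Leaving out 1 library, Hoxc4 and Hoxa2 held throughout. Hoxc6 rose to an adjusted p of 0.0606 without colonic replicate 3, Hoxa5 to 0.0556 without colonic replicate 3 (also lost without colonic replicate 2), Hoxd8 to 0.0670 without colonic replicate 2 (also lost without small intestinal replicate 3), Hoxa4 to 0.101 without colonic replicate 3 (lost in 5 of 6 fits), Hoxc5 to 0.145 without colonic replicate 2 (lost in 5 of 6 fits), Hoxa3 to 0.1199 without small intestinal replicate 1 (lost in 5 of 6 fits) and Hoxb2 to 0.171 without colonic replicate 2 (lost in 6 of 6 fits). Hox clusters hold antisense transcripts, and whether the counting used strand is not given in the sources used here, so reads of a gene and its antisense partner cannot be told apart.

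**Figure D2:**
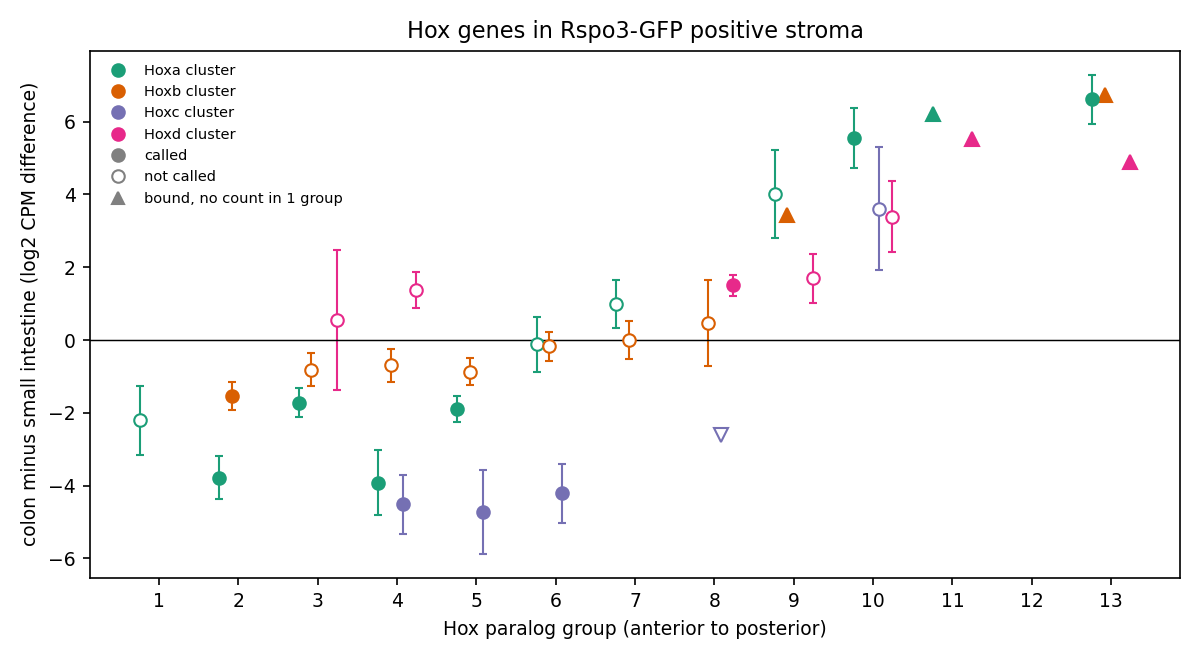
Log2 difference, colon minus small intestine, of each tested Hox gene in Rspo3-GFP positive stroma against its paralog group, coloured by cluster, with SE bars, filled where called. Triangles are lower bounds for genes without a count in 1 group. The genes called lower lie in groups 2 to 6 and groups 9 to 13 lie above 0, with Hoxd8 at 1.5 between them.

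The retinoid genes called in the edgeR model of 12 libraries were all lower in the colon. Of 16 genes listed, 12 were tested, 7 were lower, against 1.81% of all tested genes, and none higher, with a median of -1.43. DESeq2, the fit without a filter, the replicate block and the fit without small intestinal replicate 3 each called 1 higher. Without both libraries of identifier 3672, 3 were lower and 1 higher, and on log2(TPM + 1) 3 were lower and none higher. These genes handle vitamin A in both directions, since Lrat stores retinol as esters, Aldh1a1, Aldh1a2 and Aldh1a3 make retinoic acid, Dhrs3 returns retinaldehyde to retinol and Cyp26b1 degrades retinoic acid. Lrat (ENSMUSG00000028003, chromosome 3, 82892579 to 82903973, minus strand) measured 202, 142 and 246 CPM in the small intestine and 0, 0.132 and 0.571 CPM in the colon, so that it was nearly absent from every colonic library. Its difference was -9.62 ± 0.69 (SE, adjusted p = 9.19e-05), and in GFP-negative cells -7.62 (adjusted p = 0.000132). Cyp26b1 measured 225, 386 and 71.3 CPM in the small intestine and 5.38, 0.660 and 2.74 CPM in the colon, a difference of -6.24 ± 1.15 (SE, adjusted p = 0.0151). The 2 groups did not overlap although the small intestinal values spread widely.

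Aldh1a2 measured 115, 86.3 and 172 CPM in the small intestine and 12.9, 11.9 and 18.9 CPM in the colon (-3.09 ± 0.37 SE, adjusted p = 0.000956), Aldh1a3 92.3, 43.7 and 101 CPM in the small intestine and 12.4, 12.7 and 20.6 CPM in the colon (-2.37 ± 0.36 SE, adjusted p = 0.00242) and Aldh1a1 146, 157 and 287 CPM in the small intestine and 62.5, 59.95 and 65.7 CPM in the colon (-1.65 ± 0.31 SE, adjusted p = 0.00916). All 3 retinaldehyde dehydrogenases were therefore lower without overlap. Dhrs3 fell from 155 ± 42.6 to 61.3 ± 18.9 CPM (-1.34, adjusted p = 0.0194). Rarb, a retinoic acid receptor gene that retinoic acid induces, measured 82.1, 75.0 and 27.3 CPM in the small intestine and 43.2, 29.3 and 18.5 CPM in the colon with overlapping groups (-1.02, adjusted p = 0.235), and Rdh10, Bco1, Rbp4 and Dhrs9 were not called either. Rbp4, the retinol carrier gene, was higher in the GFP-negative colon (3.21, adjusted p = 0.00124) and stood at 0.16 in GFP-positive cells, and its difference between the sorts was called (-3.05 ± 0.52 SE, adjusted p = 0.0159). Dhrs9, a retinol dehydrogenase gene, was also higher in the GFP-negative colon (7.23, adjusted p = 0.0177) and lay above 0 in GFP-positive cells without a call. Its difference between the sorts was not called (-3.11 ± 1.90 SE, adjusted p = 0.517). In GFP-negative cells Aldh1a3 and Aldh1a2 were lower in the colon as well (-2.40 and -2.0, adjusted p = 0.00370 and 0.00936), whereas Aldh1a1 was at 0.07 (adjusted p = 0.945). The difference between the sorts was called for none of Lrat, Cyp26b1, Dhrs3 and these 3 genes, with adjusted p from 0.0630 for Aldh1a1 to 0.997 for Aldh1a3. Fibroblast marker sums were lower beside them, going from 62698 to 32593 CPM on average, and their part was not tested. Without single libraries the calls of Cyp26b1 (adjusted p up to 0.0831 without colonic replicate 3, also lost without colonic replicate 2), Aldh1a1 (0.0513 without colonic replicate 2) and Dhrs3 (0.0944 without colonic replicate 3, lost in 4 of 6 fits) were lost.

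The aryl hydrocarbon receptor is a transcription factor activated by ligands from diet, microbes and pollutants, and Cyp1a1, Cyp1b1, Ahrr and Tiparp are its textbook targets. Cyp1a1 and Cyp1b1 encode oxidising enzymes, and Ahrr encodes a repressor of the receptor. Of 6 genes listed and tested, these 3 were lower in the colon, against 1.81% of all tested genes, and Tiparp, Nqo1 and Ahr, the receptor gene, were not called. The 3 promoters are shown because the receptor's core motif, GCGTG on either strand, occurs in each. They are RefSeq sequences of GRCm38.p6, the last 150 bases before the annotated start, 5′ to 3′ on the gene's strand, with matches in capitals (CACGC is the motif on the other strand).
Ahrr promoter: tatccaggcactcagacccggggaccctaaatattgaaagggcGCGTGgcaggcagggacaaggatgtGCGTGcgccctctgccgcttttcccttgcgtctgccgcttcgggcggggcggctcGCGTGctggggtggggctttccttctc
Cyp1a1 promoter: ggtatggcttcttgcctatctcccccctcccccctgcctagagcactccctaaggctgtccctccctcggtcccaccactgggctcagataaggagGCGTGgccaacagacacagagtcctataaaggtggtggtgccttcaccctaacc
Cyp1b1 promoter: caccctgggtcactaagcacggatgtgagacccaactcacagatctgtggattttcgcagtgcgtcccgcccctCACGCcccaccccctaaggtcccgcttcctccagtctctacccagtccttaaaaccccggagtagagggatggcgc
The windows lie at chr13:74292332-74292481 on the minus strand, chr9:57697463-57697612 on the plus strand and chr17:79715062-79715211 on the minus strand. That of Cyp1a1 falls in an intron of a longer annotated transcript. Within 250 bases upstream, Ahrr had 3 matches and Cyp1a1 and Cyp1b1 1 each, and 1 of the 2 uncalled list members with an entry had a match. Of 32851 such windows of all genes, 28.2% held the motif, so a match is common and describes the letters only.

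Cyp1b1 (ENSMUSG00000024087, chromosome 17, 79701537 to 79715061, minus strand) measured 526, 701 and 433 CPM in the small intestine and 2.97, 5.94 and 5.37 CPM in the colon, a difference of -6.86 ± 0.41 (SE, adjusted p = 9.32e-06). Its lowest small intestinal library was far above its highest colonic one. Cyp1a1 (ENSMUSG00000032315, chromosome 9, 57687928 to 57703824, plus strand) measured 42.3, 64.5 and 14.5 CPM in the small intestine and had no count in any colonic library, which places it at least 356-fold lower (with 3 counts as the floor of the colonic group, adjusted p = 0.00223). Ahrr (ENSMUSG00000021575, chromosome 13, 74211118 to 74292331, minus strand) measured 36.7, 51.1 and 18.5 CPM in the small intestine and 0.110, 0.660 and 1.14 CPM in the colon, a difference of -5.78 ± 0.72 (SE, adjusted p = 0.00126). For all 3 genes small intestinal replicate 3 was the lowest of its group, as it was for the lymphatic, blood endothelial and pan-endothelial marker sums. Blood endothelial markers summed to 961, 2020 and 403 CPM in the small intestine and 455, 566 and 431 CPM in the colon. Pan-endothelial markers summed to 2645, 3844 and 1186 CPM in the small intestine and 3678, 3625 and 3190 CPM in the colon. The part of these cells in the 3 genes was not tested. Ahr itself stood at 85.6, 91.0 and 49.1 CPM in the small intestine and 80.5, 63.9 and 75.5 CPM in the colon, overlapping between tissues (-0.04, adjusted p = 0.979), and Tiparp at 220.4, 198 and 108 CPM in the small intestine and 95.05, 95.1 and 111 CPM in the colon (-0.80, adjusted p = 0.170). The 3 calls held in every fit that left out a library, with adjusted p up to 0.0104 for Cyp1a1. With limma-voom, and with the identifier as a random block, 2 genes of the list were called lower. Cyp1b1 was lower in the GFP-negative colon too (-5.57, adjusted p = 9.69e-05). Ahrr was not, with GFP-negative means of 9.0 and 10.3 CPM, and its difference between the sorts was -5.97 ± 0.90 (SE, adjusted p = 0.00941). Cyp1a1 was not called in GFP-negative cells, and neither was its difference between the sorts.

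**Figure D3:**
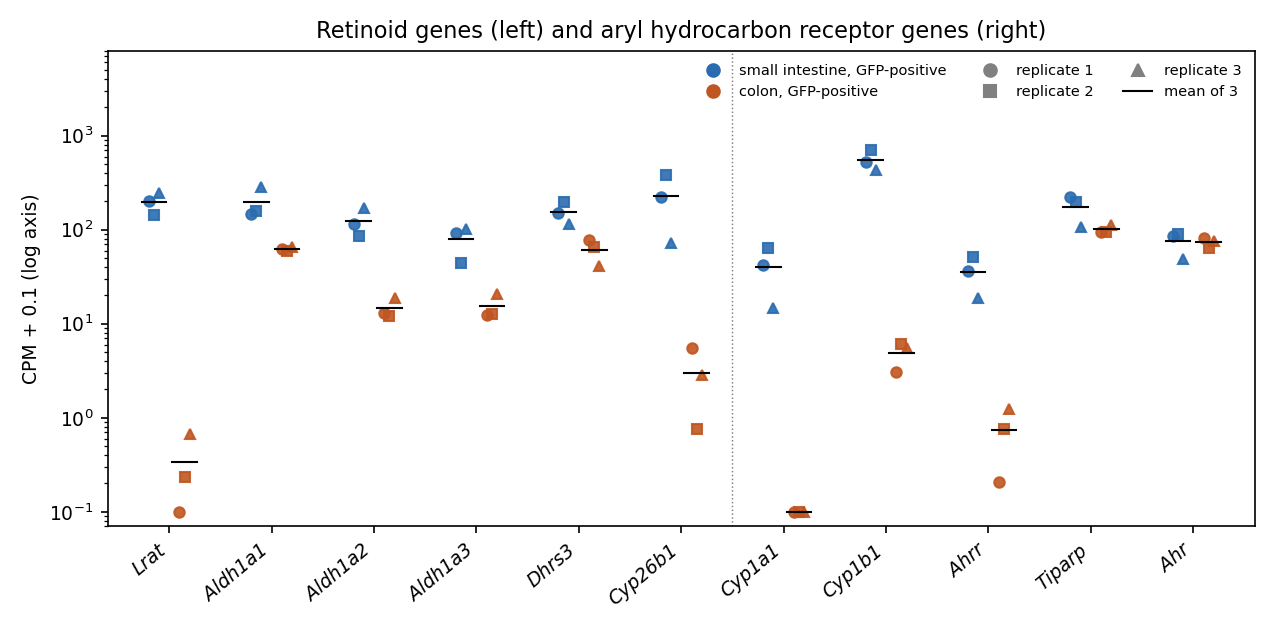
CPM + 0.1 on a log axis of 6 retinoid genes (left of the dotted line) and 5 aryl hydrocarbon receptor genes (right) in the 6 Rspo3-GFP positive libraries, with symbols for replicates and bars for the mean of 3. Lrat, Cyp26b1, Cyp1a1, Cyp1b1 and Ahrr separate the tissues most, and Tiparp and Ahr overlap.

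Stem cell niche signals were mostly lower or not called in the colon. Of 7 tested R-spondin and receptor genes, Rspo1 and Rspo2 were lower and the receptor gene Lgr4 was higher. Of 10 tested Wnt ligands 2 were lower (Wnt2 and Wnt5a), and of 9 tested secreted Wnt antagonists 2 were lower (Dkk2 and Sfrp1). The medians were -0.55, -0.61 and -0.40, and 1.81% of all tested genes were lower and 2.75% higher. Rspo2 (ENSMUSG00000051920, chromosome 15, 43020794 to 43170826, minus strand) measured 38.1, 23.6 and 62.0 CPM in the small intestine and 3.19, 1.32 and 2.51 CPM in the colon, a difference of -4.12 ± 0.64 (SE, adjusted p = 0.00288). Rspo1 measured 16.2, 12.9 and 21.4 CPM in the small intestine and 4.395, 1.32 and 4.80 CPM in the colon, a difference of -2.25 ± 0.48 (SE, adjusted p = 0.0175). Neither gene overlapped between the tissues. Lgr4 rose from 11.97 ± 1.17 to 29.97 ± 9.98 CPM (1.32, adjusted p = 0.0161) with colonic replicate 3 highest. Rspo2 was also lower in the GFP-negative colon (-4.43, adjusted p = 0.0106), while Rspo1 stood there at 0.09 (adjusted p = 0.955) and its difference between the sorts was not called (-2.35 ± 0.68 SE, adjusted p = 0.0983).

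Wnt2, a canonical Wnt ligand (ENSMUSG00000010797, chromosome 6, 17988940 to 18030585, minus strand), measured 33.8, 80.4 and 11.6 CPM in the small intestine and 1.65, 2.38 and 2.86 CPM in the colon. The small intestinal replicates differed widely, with replicate 3 lowest, and all lay above the colon (-4.19 ± 0.58 SE, adjusted p = 0.00181). In GFP-negative cells Wnt2 went the other way (0.808 to 5.08 CPM, 2.61, adjusted p = 0.0329), and the difference between the sorts was -6.80 ± 0.84 (SE, adjusted p = 0.00311). Wnt5a, a non-canonical ligand, did the same with 37.1, 24.4 and 53.5 CPM in the small intestine and 18.4, 17.3 and 18.4 CPM in the colon in GFP-positive cells (-1.09 ± 0.25 SE, adjusted p = 0.0257), a rise of 1.96 (adjusted p = 0.00174) in GFP-negative cells and a difference of -3.05 ± 0.35 (SE, adjusted p = 0.00247). Wnt2b, a canonical ligand that supports intestinal stem cells, measured 277, 301 and 441 CPM in the small intestine and 176, 181 and 219 CPM in the colon, without overlap and not called (-0.82, adjusted p = 0.305). Wnt4, Wnt5b, Wnt6, Wnt9a, Wnt9b, Wnt10b and Wnt11 were not called, and the other listed ligands, among them Wnt10a and Wnt16, were not tested.

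Dkk2, a secreted antagonist and itself a Wnt target (ENSMUSG00000028031, chromosome 3, 132085292 to 132180304, plus strand), measured 119.6, 72.9 and 123 CPM in the small intestine and 1.76, 3.04 and 4.0 CPM in the colon, a difference of -5.16 ± 0.66 (SE, adjusted p = 0.00172). Sfrp1, a secreted Wnt-binding protein, measured 1725, 1162 and 2287 CPM in the small intestine and 325, 358 and 303 CPM in the colon (-2.39 ± 0.35 SE, adjusted p = 0.00219). Both fell together with Rspo1, Rspo2 and Wnt2, so ligands, amplifiers and antagonists each had lower members. Of 9 tested Wnt target genes Dkk2, Apcdd1 and Nkd1 were lower and Ccnd1 was higher. Apcdd1 fell from 138 ± 34.3 to 24.8 ± 2.94 CPM (-2.48, adjusted p = 0.00420) and Nkd1 from 47.9 ± 10.5 to 13.3 ± 1.26 CPM (-1.85, adjusted p = 0.0181). Ccnd1, the cell cycle gene for cyclin D1, rose from 72.4 ± 28.8 to 217 ± 14.7 CPM (1.58, adjusted p = 0.0129). Axin2, a common Wnt readout, measured 24.5, 23.8 and 24.3 CPM in the small intestine and 17.3, 14.1 and 9.94 CPM in the colon and was not called (-0.81, adjusted p = 0.108). With limma-voom none of the 10 Wnt ligands was called. Without both libraries of identifier 3672, no R-spondin or receptor gene was called, and 1 Wnt ligand and 1 Wnt target gene were lower. In both of these fits 2 secreted Wnt antagonists were lower. Leaving out 1 library, Rspo2, Wnt2, Dkk2, Sfrp1 and Apcdd1 held. Rspo1 rose to an adjusted p of 0.0757 without small intestinal replicate 3 (also lost without small intestinal replicate 1 and colonic replicate 2), Lgr4 to 0.0692 without colonic replicate 3 (lost in 4 of 6 fits), Wnt5a to 0.111 without colonic replicate 2 (lost in 5 of 6 fits), Nkd1 to 0.0925 without colonic replicate 2 (lost in 5 of 6 fits) and Ccnd1 to 0.0681 without small intestinal replicate 1 (also lost without small intestinal replicate 3).

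BMP signals oppose the stem cell state and rise towards the crypt top. In GFP-positive cells 1 of 8 tested BMP ligands was called, Gdf6, which fell from 75.4 ± 15.4 to 12.1 ± 3.15 CPM (-2.63, adjusted p = 0.0422), a call lost in each of the 6 fits that left out a library (adjusted p up to 0.191 without colonic replicate 3). Of 14 BMP antagonists and related genes only Smoc2 was called. Smoc2, a matricellular protein (ENSMUSG00000023886, chromosome 17, 14279506 to 14404790, plus strand), measured 143, 94.3 and 239 CPM in the small intestine and 16.3, 9.24 and 13.4 CPM in the colon, a difference of -3.61 ± 0.35 (SE, adjusted p = 0.000476), and was lower in GFP-negative cells as well (-2.82, adjusted p = 0.00135). Grem1, the best known antagonist of these cells, measured 1033, 538 and 1534 CPM in the small intestine and 872, 788 and 762 CPM in the colon. Its groups overlapped and it was not called (-0.36, adjusted p = 0.720). The ligands Bmp2, Bmp3, Bmp4, Bmp5 and Bmp7 were not called in GFP-positive cells, with differences of -0.23, -1.54, 0.03, -0.54 and -1.79. In the GFP-negative cells all 5 were higher in the colon (2.04, 3.22, 1.72, 2.35 and 2.25), and the difference between the sorts was called for each (adjusted p from 0.0180 to 0.0432). With the sorts paired within each tissue this held for Bmp3 and Bmp7 but not for Bmp2, Bmp4 and Bmp5 (adjusted p = 0.0746, 0.066 and 0.0825).

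Among 8 tested EGF family ligands Areg was higher, with 2.08, 1.28 and 1.65 CPM in the small intestine and 7.14, 16.1 and 46.1 CPM in the colon (3.77 ± 0.69 SE, adjusted p = 0.00979). Its colonic values had the order of the epithelial marker sums, with replicate 3 highest. Fgf9 and Fgf10 were the 2 higher genes among 32 other growth factors, and Mdk and Pdgfc the 2 lower ones. Fgf9 measured 1.33, 1.58 and 2.60 CPM in the small intestine and 14.3, 10.3 and 17.5 CPM in the colon (2.94 ± 0.35 SE, adjusted p = 0.000956) and Fgf10 2.08, 0.197 and 1.65 CPM in the small intestine and 10.7, 14.4 and 18.2 CPM in the colon (3.44 ± 0.52 SE, adjusted p = 0.00253), and both were higher in the GFP-negative colon (2.63 and 2.35). Mdk, which encodes the growth factor midkine, fell from 26.9 ± 9.64 to 2.37 ± 0.453 CPM (-3.49, adjusted p = 0.00193). Pdgfc, a platelet-derived growth factor, fell from 12.2 ± 3.67 to 2.46 ± 0.412 CPM (-2.30, adjusted p = 0.00155) and differed between the sorts (-3.32 ± 0.42 SE, adjusted p = 0.00335). Fgf9, Fgf10, Mdk and Pdgfc held without any single library, and Areg rose to an adjusted p of 0.0525 without small intestinal replicate 3 (also lost without small intestinal replicate 2). Of 10 hedgehog pathway genes Hhip, which binds hedgehog ligands, was higher (80.1, 21.4 and 61.8 CPM in the small intestine and 177, 200.5 and 245 CPM in the colon, 1.93 ± 0.46 SE, adjusted p = 0.0363), a call lost in 5 of 6 such fits (up to 0.116 without colonic replicate 3), while Ptch1 and Gli1 stood at -0.16 and 0.09.

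**Figure D4:**
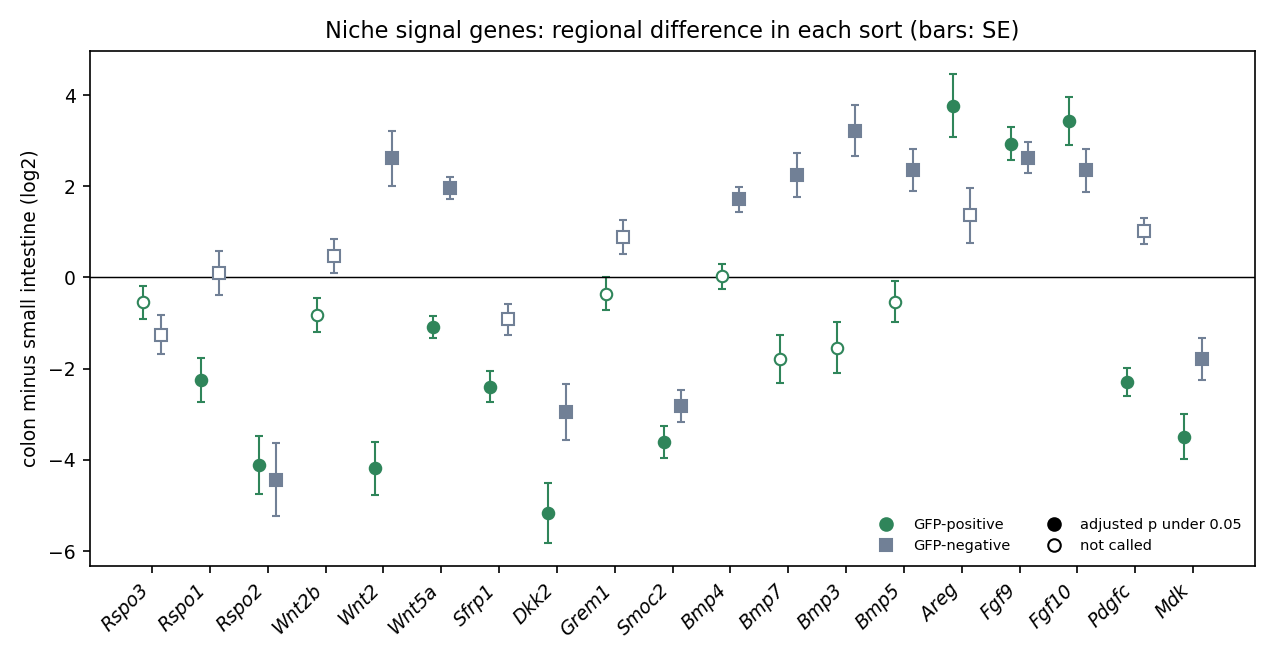
Log2 difference, colon minus small intestine, of 19 niche signal genes in GFP-positive (circles) and GFP-negative (squares) cells, with SE bars and filled symbols where called. Wnt2 lies at -4.19 in GFP-positive and 2.61 in GFP-negative cells, and the Bmp genes are filled in the GFP-negative sort, where they lie above 0.

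The interferon-induced genes that were called were mostly GTPases. Of 26 listed and tested, 7 were higher and none lower, against 2.75% higher over all genes, and their median was 0.33. Among them were 5 guanylate-binding proteins (Gbp2, Gbp3, Gbp4, Gbp6 and Gbp7) and the related GTPase gene Igtp. These GTPases act on vacuoles of intracellular microbes. Genes typical of type I interferon were not called, with Ifit1, Ifit2, Ifit3, Isg15 and Mx1 between -0.46 and 0.24. The promoters of Gbp7 and Igtp are shown for the letters GAAA repeated after a gap of 2 bases, as in the interferon-stimulated element, on either strand, in capitals as above (TTTC is GAAA on the other strand).
Gbp7 promoter: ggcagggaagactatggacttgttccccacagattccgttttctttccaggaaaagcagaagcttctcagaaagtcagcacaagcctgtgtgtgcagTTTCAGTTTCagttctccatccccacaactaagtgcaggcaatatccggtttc
Igtp promoter: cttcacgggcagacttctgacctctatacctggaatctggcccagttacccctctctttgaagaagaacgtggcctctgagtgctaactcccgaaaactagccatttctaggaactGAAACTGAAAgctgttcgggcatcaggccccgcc
They lie at chr3:142530186-142530335 on the plus strand and chr11:58199406-58199555 on the plus strand, also from RefSeq on GRCm38.p6. All 4 called list members with an entry (Gbp2, Gbp3, Gbp7 and Igtp) and 7 of the 14 uncalled ones held a match within 250 upstream bases. Over all genes 2.98% of windows did.

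Gbp7 (ENSMUSG00000040253, chromosome 3, 142530342 to 142550149, plus strand) measured 148, 92.0 and 94.8 CPM in the small intestine and 366, 377 and 276 CPM in the colon (1.61 ± 0.28 SE, adjusted p = 0.00564) and Gbp3 108, 115 and 82.2 CPM in the small intestine and 301, 277 and 224 CPM in the colon (1.39 ± 0.21 SE, adjusted p = 0.00253). Igtp (ENSMUSG00000078853, chromosome 11, 58199556 to 58207591, plus strand) measured 54.2, 62.8 and 63.4 CPM in the small intestine and 166, 182 and 109 CPM in the colon (1.34 ± 0.24 SE, adjusted p = 0.00709). In these 3 genes every colonic library stood above every small intestinal one. Gbp6 rose from 199 ± 46.1 to 525 ± 68.3 CPM, Gbp4 from 78.7 ± 36.9 to 266 ± 14.6 CPM and Gbp2 from 259 ± 71.6 to 584 ± 125 CPM (log2 differences of 1.40, 1.75 and 1.17). For all 6 GTPase genes colonic replicate 3, which had the highest epithelial marker sum, was the lowest of the colonic libraries. The part of epithelial RNA and of the cell mixture in these 6 genes was not tested. None of the 6 was called in GFP-negative cells by edgeR, with adjusted p from 0.192 for Igtp to 0.872 for Gbp3. The difference between the sorts was called for Gbp3 alone among the 6 (1.29 ± 0.30 SE, adjusted p = 0.0458). Guanylate-binding proteins are near-identical in stretches and their counts may be partly shared. Gbp3, Gbp7 and Igtp held without any single library, while Gbp2 rose to an adjusted p of 0.0764 without small intestinal replicate 1 (lost in 4 of 6 fits), Gbp6 to 0.113 without small intestinal replicate 3 (lost in 5 of 6 fits) and Gbp4 to 0.160 without small intestinal replicate 3 (lost in 5 of 6 fits). None of the 15 antigen presentation genes was called in the edgeR model of 12 libraries. The edgeR fit of the 6 GFP-positive libraries called 4 higher, limma-trend on log2(TPM + 1) 3, DESeq2 2 and the fit without small intestinal replicate 2 called 1. Every colonic library lay above the small intestine for 9 of the 15 genes, as for 12.9% of all tested genes. Among the 9 were the class II genes Cd74 and H2-Ab1, the latter at 9.15, 30.3 and 21.1 CPM in the small intestine and 140.2, 119.9 and 127 CPM in the colon (2.68, adjusted p = 0.356).

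Cxcl13, the B cell chemoattractant of gut lymphoid tissue (ENSMUSG00000023078, chromosome 5, 95956951 to 95961068, plus strand), was the chemokine that fell. It measured 159, 62.8 and 184 CPM in the small intestine and 3.85, 4.62 and 3.20 CPM in the colon, with no overlap, a difference of -5.12 ± 0.47 (SE, adjusted p = 0.000440). In GFP-negative cells it had means of 23.8 and 31.3 CPM (0.40, adjusted p = 0.673), and the difference between the sorts was -5.52 ± 0.60 (SE, adjusted p = 0.00230). Cxcl1, a neutrophil chemoattractant, was the higher one of the 18 tested rows of chemokine genes, with 223, 204 and 199.6 CPM in the small intestine and 360.3, 333 and 502 CPM in the colon (0.93, adjusted p = 0.0380). Its call was lost in all 6 fits without a library (up to 0.164 without colonic replicate 3). Ccl21a, the lymphatic chemokine with near-identical copies, measured 1385, 2469 and 593 CPM in the small intestine and 5359, 7123 and 5746 CPM in the colon and was not called (2.03, adjusted p = 0.163). Lif was the called cytokine of 12, falling from 37.0 ± 10.2 to 14.8 ± 1.95 CPM (-1.32, adjusted p = 0.0253, up to 0.12 without colonic replicate 2, lost in 5 of 6 fits).

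Complement genes were called in both directions. Of 14 tested, 4 were lower, among them C7, C4b and Cfb, and 2 higher, Cd55 and Masp1, with a median of -0.84. C7, a member of the membrane attack complex (ENSMUSG00000079105, chromosome 15, 4988762 to 5063740, minus strand), measured 806, 749 and 1037 CPM in the small intestine and 269, 211 and 255 CPM in the colon (-1.82 ± 0.20 SE, adjusted p = 0.000650), and it was lower in the GFP-negative colon too (-1.74, adjusted p = 0.00124). C4b fell from 2759 ± 631 to 879.8 ± 68.7 CPM (-1.65, adjusted p = 0.0163) and Cfb from 267 ± 77.7 to 121 ± 8.14 CPM (-1.13, adjusted p = 0.0176). C3, the central complement component, measured 8591, 7379 and 11553 CPM in the small intestine and 4759, 4902 and 4809 CPM in the colon, without overlap and not called (-0.93, adjusted p = 0.0659). Cd55, a membrane protein that dismantles complement convertases, measured 267, 196 and 359 CPM in the small intestine and 601, 524 and 589.5 CPM in the colon (1.06 ± 0.25 SE, adjusted p = 0.0288). Masp1, a lectin pathway protease, rose from 2.76 ± 2.05 to 26.3 ± 8.75 CPM (3.25, adjusted p = 0.00986). C7 held without any single library. C4b rose to an adjusted p of 0.0963 without colonic replicate 3 (lost in 4 of 6 fits), Cfb to 0.103 without colonic replicate 3 (lost in 4 of 6 fits), Cd55 to 0.102 without small intestinal replicate 1 (lost in 5 of 6 fits) and Masp1 to 0.0532 without small intestinal replicate 1 (also lost without small intestinal replicate 3).

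**Figure D5:**
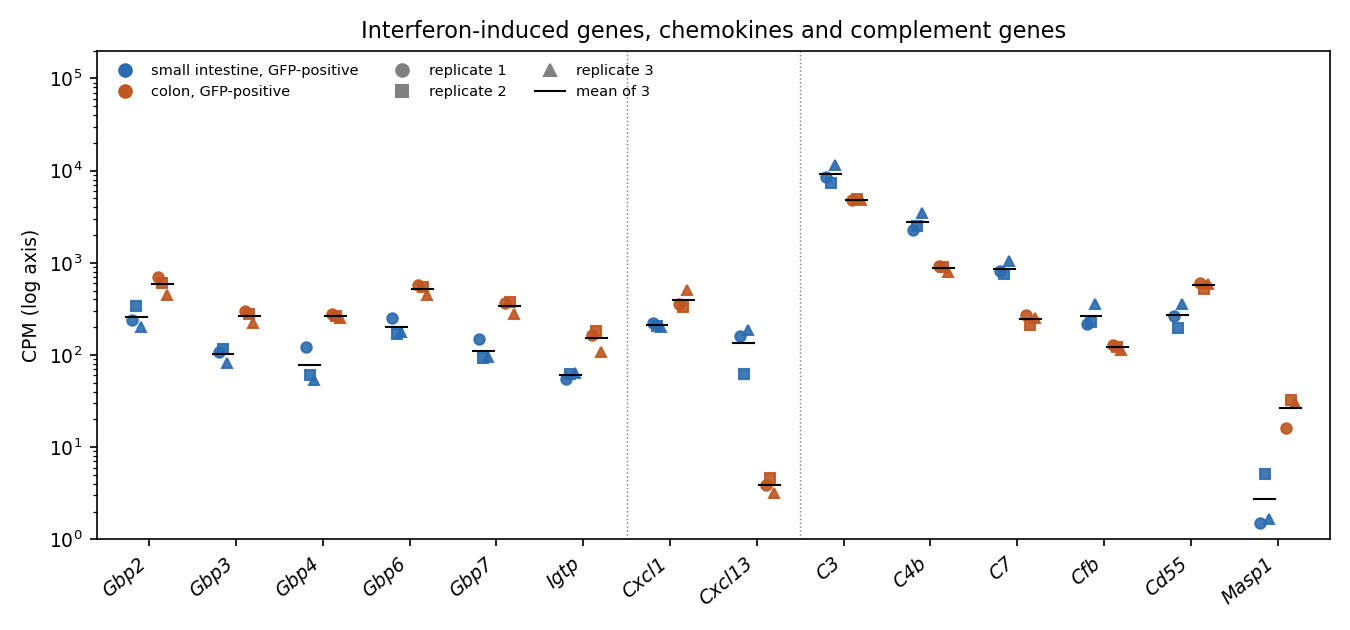
CPM on a log axis of 6 interferon-induced genes, 2 chemokines and 6 complement genes in the 6 Rspo3-GFP positive libraries, separated by dotted lines, with symbols for replicates and bars for the mean of 3. The guanylate-binding proteins lie higher and Cxcl13 lower in the colon, at 3.89 against 135 CPM.

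Of the matrix genes that matched 2 lists by symbol, those called were lower apart from Has1. Of 46 tested proteoglycan, elastic fibre and matricellular genes, 6 were lower (Spon1, Fbln1, Fbln7, Ltbp1, Ltbp2 and Fbn2) and 1 higher (Has1), and of 32 tested collagens 2 were lower (Col6a5 and Col15a1). Outside these counts are Ccn2 and Ccn3, both called higher, which the list holds under older symbols that did not match. Spock2, called lower, is not in the list, and the values of these genes follow below. The medians of the 2 lists were -0.43 and -0.50, and 1.81% of all tested genes were lower and 2.75% higher. Of the 46 genes, DESeq2 called 6 higher and 9 lower, and limma-trend on log2(TPM + 1) 5 higher and 3 lower. Of the 32 collagens, DESeq2 called 2 higher and 7 lower. Spon1, a secreted matrix protein (ENSMUSG00000038156, chromosome 7, 113765998 to 114043370, plus strand), measured 657, 592 and 888 CPM in the small intestine and 89.6, 93.1 and 76.1 CPM in the colon (-3.05 ± 0.32 SE, adjusted p = 0.000578). In GFP-negative cells it stood at -0.22, and the difference between the sorts was -2.82 ± 0.43 (SE, adjusted p = 0.00805). Fbln7 fell from 102 ± 29.6 to 18.8 ± 4.12 CPM (-2.43, adjusted p = 0.00157), Ltbp2 from 27.4 ± 12.7 to 1.77 ± 0.943 CPM (-3.93, adjusted p = 0.00181) and Col6a5 from 49.9 ± 15.4 to 5.05 ± 3.20 CPM (-3.29, adjusted p = 0.00216). Fbn2, an elastic fibre protein, was lower in GFP-positive and higher in GFP-negative colon (-1.84 and 1.87, difference -3.71 ± 0.44 SE, adjusted p = 0.00286). Has1, a hyaluronan synthase, measured 109.6, 88.1 and 109 CPM in the small intestine and 301, 266 and 305 CPM in the colon (1.51, adjusted p = 0.0407). Col1a1, the main fibrillar collagen gene, measured 8727, 9811 and 13216 CPM in the small intestine and 4039, 4815 and 3531 CPM in the colon, without overlap and not called (-1.36, adjusted p = 0.0747). Fibroblast marker sums moved the same way, and their part was not tested. Has1 lost its call in all 6 fits without a library (up to 0.128 without small intestinal replicate 2), Fbln1 rose to 0.0827 without colonic replicate 3 (lost in 4 of 6 fits), Col15a1 to 0.0577 without colonic replicate 1 and Ltbp1 to 0.0522 without colonic replicate 1, and the others held.

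Matrix proteases were mostly lower where called. Of 28 tested protease and inhibitor genes 6 were lower, against 1.81% of all tested genes, and 1 was higher. The lower ones were the metalloprotease genes Mmp3, Mmp10, Mmp16, Adamts10, Adamts12 and Adamts15. The higher one was Plat, which encodes tissue plasminogen activator. Mmp3 (ENSMUSG00000043613, chromosome 9, 7445822 to 7455975, plus strand) measured 160.1, 122 and 176 CPM in the small intestine and 19.1, 15.4 and 18.7 CPM in the colon (-3.10 ± 0.35 SE, adjusted p = 0.000650). Mmp10 measured 22.5, 13.5 and 12.05 CPM in the small intestine and 0.220, 0 and 0.229 CPM in the colon (-6.55 ± 0.66 SE, adjusted p = 0.000578) and had GFP-negative means of 224 CPM in the small intestine and 7.30 CPM in the colon. Adamts15 fell from 66.1 ± 28.7 to 4.37 ± 1.42 CPM (-3.92, adjusted p = 0.000578) and Mmp16 from 47.8 ± 25.9 to 11.7 ± 0.296 CPM (-2.02, adjusted p = 0.00805). Plat measured 38.0, 37.2 and 41.3 CPM in the small intestine and 94.1, 91.9 and 104 CPM in the colon, with close replicates (1.32 ± 0.24 SE, adjusted p = 0.00768), and differed between the sorts (2.0 ± 0.34 SE, adjusted p = 0.0152). Adamts10 and Adamts12 lost their calls in 5 of 6 fits without a library (up to 0.125 without colonic replicate 3 and 0.151 without colonic replicate 2), and the others held.

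Among 37 tested mesenchymal transcription factors 3 were higher, among them Osr2 and Twist1, and 4 were lower (Hand2, Tbx2, Eya1 and Osr1). With limma-voom none was lower and 2 were higher, and on log2(TPM + 1) none and 3. With the identifier as a random block none was lower and 4 were higher, and without both libraries of identifier 3672 none and 1. Osr1 and Osr2 encode related zinc finger proteins and went in opposite directions. Osr2 measured 0.166, 0.0985 and 0.354 CPM in the small intestine and 5.49, 4.75 and 5.26 CPM in the colon (4.59 ± 0.80 SE, adjusted p = 0.00541), and Osr1 59.2, 41.8 and 97.3 CPM in the small intestine and 25.7, 27.1 and 28.5 CPM in the colon (-1.29 ± 0.32 SE, adjusted p = 0.0403). In GFP-negative cells Osr1 was instead higher in the colon (2.88, adjusted p = 0.00124), a difference between the sorts of -4.17 ± 0.47 (SE, adjusted p = 0.00230), and Osr2 stood at -0.33 (difference 4.91 ± 1.02 SE, adjusted p = 0.0301). Hand2, a factor of gut and heart mesenchyme, fell from 11.9 ± 4.42 to 2.71 ± 0.288 CPM (-2.13, adjusted p = 0.0109). Twist1, a mesenchymal factor, rose from 1.54 ± 1.14 to 13.4 ± 1.65 CPM (3.13, adjusted p = 0.0259). Nkx2-3, a factor of gut mesenchyme, measured 59.2, 79.8 and 102 CPM in the small intestine and 32.7, 32.4 and 30.9 CPM in the colon and was not called (-1.33, adjusted p = 0.0528). Of these genes Osr2 held without any single library. Hand2 rose to an adjusted p of 0.0556 without colonic replicate 3 (also lost without colonic replicate 2), Tbx2 to 0.0992 without colonic replicate 1 (lost in 4 of 6 fits), Twist1 to 0.108 without small intestinal replicate 1 (lost in 5 of 6 fits), Eya1 to 0.171 without colonic replicate 3 (lost in 5 of 6 fits) and Osr1 to 0.174 without small intestinal replicate 3 (lost in 5 of 6 fits).

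The largest differences in each direction were of different kinds. The 15 higher genes with the largest log2 difference, among those with a mean of 16 CPM or more over the 6 libraries and no overlap, were Sprr2a1, Tspan1, Slc6a14, Muc3, Gsdmc4, Tgm3, Lypd8, Sprr2a2, Krt19, Ckmt1, Myo1a, Aqp4, Dmbt1, Krt20 and Krt8. Most are known from epithelia, such as the keratins, the mucin gene Muc3 and the brush border myosin Myo1a, and in all 15 colonic replicate 3 was highest and replicate 1 lowest. Lypd8, for example, measured 1.16, 0.394 and 0.472 CPM in the small intestine and 167, 325 and 691 CPM in the colon. Sprr2a1 and Sprr2a2 are near-identical copies, as are genes around Gsdmc4, and their counts may be shared. Sprr2a1 lost its call in 3 of 6 fits without a library (up to 0.0557 without small intestinal replicate 1). The 15 lower genes were Cyp1a1, Lrat, Cyp1b1, Cyp26b1, Ahrr, Dkk2, Cxcl13, Chodl, Ntrk2, Angptl4, Wnt2, Rspo2, Spock2, Adamts15 and Shisa3, chosen likewise among genes whose groups did not overlap. Angptl4, an inhibitor of lipoprotein lipase, measured 183, 143 and 69.1 CPM in the small intestine and 7.58, 4.89 and 4.69 CPM in the colon (-4.52 ± 0.47 SE, adjusted p = 0.000639). Spock2, a matrix proteoglycan gene, measured 209, 186 and 216 CPM in the small intestine and 9.23, 13.9 and 16 CPM in the colon (-3.96 ± 0.43 SE, adjusted p = 0.000650), and Shisa3 fell from 152 ± 54.1 to 10.4 ± 4.29 CPM (-3.87, adjusted p = 0.000650).

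Higher genes with even colonic values were described separately, since the 15 above followed the epithelial order. The 15 with the largest difference among the 120 such genes, at 16 CPM or more on average, were chosen after their values were seen. Igfbp5, a secreted binding protein of insulin-like growth factors (ENSMUSG00000026185, chromosome 1, 72857932 to 72874884, minus strand), measured 549, 562 and 549.6 CPM in the small intestine and 3114, 3158 and 3141 CPM in the colon, with close replicates (2.50 ± 0.28 SE, adjusted p = 0.000677), and was higher in the GFP-negative colon too (1.38, adjusted p = 0.0165). The matricellular genes Ccn2 and Ccn3 measured 217, 163 and 196 and 60.7, 51.8 and 61.9 CPM in the colon, against means of 42.0 and 6.03 CPM in the small intestine (2.19 and 3.26, adjusted p = 0.00155 and 0.000200). Itga6, an integrin subunit that binds laminin, measured 22.9, 27.4 and 19.6 CPM in the small intestine and 107, 111 and 117 CPM in the colon (2.26 ± 0.34 SE, adjusted p = 0.00253). Pkhd1l1 rose from 16.6 ± 5.45 to 197 ± 28.4 CPM, and Abcg1, a cholesterol transporter, from 4.53 ± 3.76 to 46.9 ± 6.80 CPM (3.56 and 3.37). Ccn3, Itga6, Pkhd1l1 and Abcg1 were not called in GFP-negative cells, and their differences between the sorts were called (2.64, 3.22, 4.72 and 3.47). Tnfrsf11b, the decoy receptor osteoprotegerin, rose from 12.9 ± 5.73 to 61.3 ± 1.91 CPM (2.25, adjusted p = 0.00216). The rest were Cd109, Cdh13, Ddah1, Plxdc1, Stmn2, Podxl, Hhip and St8sia6, of which the last 3 lost their calls in 5 of 6 fits without a library, with adjusted p up to 0.127 without small intestinal replicate 1 for Podxl and 0.104 without small intestinal replicate 1 for St8sia6. St8sia6, a sialyltransferase gene, rose from 24.7 ± 13.8 to 90.5 ± 3.61 CPM (1.87, adjusted p = 0.0323) and was lower in the GFP-negative colon (-3.17, adjusted p = 0.00522). Stmn2 rose to 0.0712 without small intestinal replicate 3 (also lost without small intestinal replicate 2). Lymphatic marker sums, which include the abundant Ccl21a, were higher in the colon by 1.91-fold on average, and their part in these genes was not tested.

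Several programmes had no called gene in the edgeR model of all 12 libraries, although other fits called up to 4 members of a list, the most for antigen presentation. None of the 22 immediate early and stress genes was called, with 20 differences below 0 and a median of -0.62, and Fos measured 3859, 3473 and 1999 CPM in the small intestine and 2224, 1363 and 1289 CPM in the colon with overlapping groups. DESeq2 called 2 of them higher, and the edgeR fit of the 6 GFP-positive libraries 1. None of the 17 cell cycle genes was called, although 9 lay above the small intestine in every colonic library, as did 12.9% of all tested genes, and the median was 0.93. The fit of the 6 GFP-positive libraries called 3 of them higher, DESeq2 2 and edgeR without a filter 1. Mki67, the proliferation marker, measured 24.3, 18.3 and 12.6 CPM in the small intestine and 44.7, 54.5 and 56.1 CPM in the colon (1.49, adjusted p = 0.506). The 12 mitochondrial mRNAs had a median of 0.03 and 1 higher gene with DESeq2, and Malat1, a nuclear RNA, stood at 0.02.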

How the data were processed

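RNA sequencing of 12 libraries gave 2 deposited tables of 32052 genes. The submitters' processing notes name Salmon 1.1.0, R 3.6.1 and the mm10 build, and annotation, filters and strand are not given in the sources used here. The deposited estimated counts are whole numbers and were treated as rounded. The other deposited table holds log2 values of TPM + 1. Symbols and positions came from GENCODE M21 (GRCm38), which matched 32001 identifiers. Counts were tested with edgeR 4.0.16 (robust quasi-likelihood, TMM, filterByExpr minimum count 10) in R 4.3.3, in a single model of 12 libraries with a mean per group, over 16757 genes, with Benjamini-Hochberg adjustment and calls under 0.05. Contrasts were colon minus small intestine in each sort and the difference between the sorts. The fit was tested on simulated data. Alternatives used DESeq2 1.42.0, limma 3.58.1, other filters and scalings, blocks and left-out libraries.

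Members and the 53 gene lists were chosen with earlier results of these data known. Named genes were Rspo3, tested Hox and niche genes, the 15 largest non-overlapping calls in each direction with a mean of 16 CPM or more, up to 6 called members per other list, and up to 3 abundant ones where none was called. Others named were chosen after their values were seen. Genes without counts in a group are given as a bound against a floor of 3 counts, for counting error alone. Counts and medians of lists cover all tested members, of which some are not reported here by name.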

Additional observations from a re-analysis of the deposited data

Results flagged for a closer look

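The regional difference of 51 named genes itself differed between GFP-positive and GFP-negative cells (edgeR interaction, adjusted p under 0.05 over 16757 genes, where 2.06% were called). Values are the GFP-positive minus the GFP-negative log2 difference, colon minus small intestine, with adjusted p from 0.00230 for Cxcl13 to 0.0481 for Ddah1. With the sorts paired within each tissue all 51 kept their sign and 38 kept their call. Those not called then were Hoxb5, Sema5a, Mmp3, Dmbt1, Erbb3, Bmp2, Elf3, Krt20, Bmp4, Bmp5, Twsg1, Wnt5b and Ddah1.

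Below 0 were signals, matrix genes and regulators of stroma. Among secreted signals these were Cxcl13 (-5.52), Wnt2 (-6.80), Wnt5a (-3.05), Wnt5b (-3.02), Pdgfc (-3.32), Bmp2 (-2.27), Bmp3 (-4.75), Bmp4 (-1.69), Bmp5 (-2.89), Bmp7 (-4.04) and the BMP-binding gene Twsg1 (-1.19). Matrix and protease genes were Fbn2 (-3.71), Spon1 (-2.82), Fbln1 (-2.77), Col15a1 (-2.22) and Mmp3 (-2.35). The others were the transcription factor Osr1 (-4.17), the receptor repressor Ahrr (-5.97), the retinol carrier Rbp4 (-3.05), the lectin-like Chodl (-5.81), the guidance genes Robo1 (-2.72) and Sema5a (-2.21) and the prostaglandin genes Ptges (-1.81) and Hpgd (-2.81).

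Above 0 were Hoxb5 (2.72), Osr2 (4.91), Gbp3 (1.29), Plat (2.0), Ccn3 (2.64), Itga6 (3.22), St8sia6 (5.04), Pkhd1l1 (4.72), Podxl (4.10), Abcg1 (3.47), Ddah1 (2.28), Dpp4 (4.84) and Erbb3 (4.53). Genes known from epithelia were also above 0, namely Myo1a (8.35), Ckmt1 (7.20), Apob (7.62), Cdhr5 (5.92), Krt19 (6.69), Pigr (6.14), Lypd8 (5.22), Krt8 (5.34), Cldn15 (4.97), Dmbt1 (5.40), Muc3 (6.51), Cldn3 (5.58), Krt20 (5.97) and Elf3 (4.87). Epithelial marker sums ranged over 379.6 to 3364 CPM in GFP-negative libraries and from 14.6 to 2509 CPM in GFP-positive ones. General fibroblast markers summed to 12241, 31472 and 13995 CPM in the GFP-negative small intestine and 32043, 35676 and 32647 CPM in the GFP-negative colon. In GFP-positive cells they went the other way, with means of 62698 and 32593 CPM. B and plasma cell markers summed to 75095 CPM in GFP-negative small intestinal replicate 3. The part of these sums in the differences between the sorts, below or above 0, was not tested.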

How the results depend on the processing

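Of 247 named genes none changed direction while called under any setting, and 109 of 4159 gene values changed sign while called in neither fit. Of the 152 called ones, 81 stayed called in all 6 fits without 1 library. Calls in GFP-positive cells were 1430 with DESeq2 (818 higher, 612 lower), 364 with limma-voom (186 and 178), 376 on log2(TPM + 1) (65 lower), 470 with limma-voom and the identifier as a random block (261 higher) and 289 without both libraries of identifier 3672 (187 and 102). The fit of the 6 GFP-positive libraries alone gave 464 lower. Colonic values within 1.5-fold, a limit set after seeing the data, kept 120 higher genes. Leaving out 1 library gave 416 to 613 calls, 257 to 401 higher and 125 to 269 lower. GFP-negative calls were 1661 with DESeq2, 1509 on log2(TPM + 1) and 432 to 758 without 1 GFP-positive library. Differences between the sorts numbered 1103 with DESeq2, 160 on log2(TPM + 1), 73 without identifier 3672 and 98 to 393 without 1 library. The cause of these shifts was not tested. With the replicate number as a block, 853 genes were called in GFP-positive cells, 700 of them shared, and 535 between the sorts. Same-numbered GFP-positive libraries of the 2 tissues correlated at 0.02, 0.05 and 0.05 in their deviations and were not treated as pairs. The 2 sorts of a tissue share the starts of their column names, with a consensus correlation of 0.19, and calls between the sorts with limma-voom went from 179 to 366 with the identifier as a random block. The edgeR fit paired within each tissue, added after seeing the data, gave 330. With 3 libraries a group at 7735300 to 12286054 counts, a gene without a call may still differ.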

Other observations

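Axon guidance genes, which also steer vessels and fibroblasts, had 3 lower and 1 higher gene of 31 tested. Slit2, a secreted repellent, measured 114, 82.0 and 143 CPM in the small intestine and 9.23, 13.3 and 14.97 CPM in the colon (-3.17 ± 0.41 SE, adjusted p = 0.00126), with no overlap, and was lower in GFP-negative cells too (-1.61, adjusted p = 0.0407). Its receptor gene Robo1 fell from 58.6 ± 16.5 to 30.1 ± 2.59 CPM (-0.96, adjusted p = 0.0369) and was higher in the GFP-negative colon (1.75, adjusted p = 0.00280). Sema5a fell from 63.3 ± 16.1 to 22.9 ± 4.84 CPM (-1.47, adjusted p = 0.0127), and Sema3d, a lymphatic marker here, rose from 168 ± 26.0 to 357 ± 32.8 CPM (1.09, adjusted p = 0.0491). Only Slit2 of these 4 held without any single library, with adjusted p up to 0.0722 without colonic replicate 2 (lost in 4 of 6 fits) for Sema5a, 0.157 without colonic replicate 2 (lost in 5 of 6 fits) for Robo1 and 0.169 without small intestinal replicate 3 (lost in 6 of 6 fits) for Sema3d. Chodl, a membrane protein with a lectin domain, measured 94.7, 33.8 and 128 CPM in the small intestine and 4.72, 1.19 and 1.49 CPM in the colon (-5.09 ± 0.72 SE, adjusted p = 0.00238), and Ntrk2, the receptor of brain-derived neurotrophic factor, 48.6, 26.9 and 43.6 CPM in the small intestine and 1.65, 0.528 and 2.86 CPM in the colon (-4.54 ± 0.62 SE, adjusted p = 0.00181).

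Prostaglandin genes had 3 lower members of 15 tested. Ptges, which makes prostaglandin E2, fell from 55.0 ± 8.59 to 25.3 ± 3.97 CPM (-1.12, adjusted p = 0.0281), Hpgd, which degrades it, from 154 ± 27.3 to 59.1 ± 3.44 CPM (-1.38, adjusted p = 0.0465), and its receptor gene Ptger2 from 9.04 ± 5.48 to 1.72 ± 1.17 CPM (-2.40, adjusted p = 0.0277). Each call was lost without some library, with adjusted p up to 0.143 without colonic replicate 2 (lost in 5 of 6 fits) for Ptges, 0.181 without colonic replicate 3 (lost in 6 of 6 fits) for Hpgd and 0.133 without colonic replicate 3 (also lost without small intestinal replicate 1 and colonic replicate 1) for Ptger2. Of 18 clock genes Nr1d1, a repressor of the circadian clock, was called, rising from 15.6 ± 8.42 to 60.5 ± 13.3 CPM (1.96, adjusted p = 0.0169, up to 0.0707 without small intestinal replicate 2, lost in 4 of 6 fits). Times of collection are not given in the sources used here. The pericyte marker Rgs5 fell from 237 ± 113 to 37.6 ± 8.52 CPM (-2.65, adjusted p = 0.0167, up to 0.0844 without colonic replicate 3, lost in 5 of 6 fits), and pericyte markers summed to 472, 380.2 and 530.0 CPM in the small intestine and 174, 213 and 194 CPM in the colon.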
